A study of Mus musculus with 96 samples.

Results

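Cardiac fibroblasts (FBs) of mice were compared 28 days after myocardial infarction (D28) with FBs of mice that had not been operated (D0), in 4 small RNA libraries per day, 8 of the 96 libraries of the series. All mature miRNAs listed for these libraries were taken, 1978 names, of which 1148 had a count in at least 1 of the 8 libraries and 563 had enough counts to be tested. The mice of both groups were male C57Bl/6J animals, and infarction was induced at 12 to 14 weeks of age by permanent ligation of the left anterior descending coronary artery. The D0 group had no ligation, and no sham-operated group was analysed here. Each library was made from the RNA of 3 pooled mice, or 2 where a sample was missing. The spread between libraries is therefore a spread between pools. The study's methods use both terms, biological and technical replicates, for these pools. FBs were the cells that remained after removal of CD45-positive and CD144-positive cells with beads and that stuck to an uncoated dish, most of them positive for DDR2, without a further sort.

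A miRNA is cut from a hairpin precursor, and either arm (5p or 3p) can be loaded into an Argonaute protein, where bases 2 to 8, the seed, select the messenger RNAs that are repressed. After infarction, FBs divide, turn into matrix-producing myofibroblasts and later persist in the mature scar as cells with little contractile protein. The comparison of D28 with D0 asks which miRNAs still differ from the uninjured heart once the scar is formed.

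The miRNAs that were called in every alternative analysis that tested them, and those that share a seed with another miRNA called here, are shown first, because the values below refer to them. The seed is in capitals, the sequences are from RefSeq (GRCm38), and 33 of the 38 miRNAs called have an entry in that table.
miR-31-5p: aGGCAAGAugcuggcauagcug
miR-31-3p: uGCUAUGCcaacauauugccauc
miR-140-3p: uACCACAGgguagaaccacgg
miR-21a-5p: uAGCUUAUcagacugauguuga
miR-21b: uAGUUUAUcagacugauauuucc
miR-155-5p: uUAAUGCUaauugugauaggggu
miR-146b-5p: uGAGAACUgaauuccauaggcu
miR-452-5p: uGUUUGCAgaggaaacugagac
miR-344d-3p: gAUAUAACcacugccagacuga
miR-344e-3p: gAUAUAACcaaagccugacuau
miR-200b-3p: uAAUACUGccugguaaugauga
miR-429-3p: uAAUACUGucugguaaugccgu
miR-34a-5p: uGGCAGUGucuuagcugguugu
miR-34b-5p: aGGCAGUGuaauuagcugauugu
miR-139-5p: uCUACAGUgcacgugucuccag
miR-338-3p: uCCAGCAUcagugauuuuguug
The 2 pairs miR-344d-3p with miR-344e-3p and miR-200b-3p with miR-429-3p share their seed and differ at 5 and 4 of 22 positions. miR-34a-5p and miR-34b-5p, of 22 and 23 bases, share their seed and differ at 11 of the first 22 positions when no gap is allowed. This count includes positions shifted by an extra base after the seed of miR-34b-5p, so it overstates how far the pair differs. miR-21b differs from miR-21a-5p at 4 of the first 22 positions, 1 of them in the seed, and miR-378c differs from miR-378d at 2 of 21, so reads could have been split between such near copies.

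The 4 D28 libraries held 18042542 to 22659909 counts on mature miRNAs and the D0 libraries 12809469 to 19196750, apart from D0 replicate 2 with 2217588. D0 replicate 2 was also the farthest from its own group, with a mean distance of 1.35 against 0.84 to 0.88 for the other D0 libraries, taken over the 500 miRNAs that differed most in log2 CPM between each 2 libraries. The mean distance between D28 and D0 libraries was 0.99, against 0.98 among the D0 libraries, 0.65 among the D28 libraries and 1.38 from D3 to D0. The FB markers miR-199a and miR-214 (4 arms) summed to 40834.9 to 63379.8 CPM at D0 and 53427.7 to 71493.1 CPM at D28. Over its 24 libraries, miR-199a-3p averaged 45840 CPM in FBs and 506.8 to 5197 CPM in the other cell types.

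Of the sums of the other marker lists, that of 4 leukocyte miRNAs separated the days and the rest overlapped. The 4 leukocyte miRNAs (miR-223-3p, both miR-142a arms, miR-150-5p) summed to 222.3 to 235.7 CPM at D0 and 72.4 to 170.6 CPM at D28, with no overlap. Each of the 4 overlapped between the days when taken alone, and miR-150-5p, the largest of them, averaged 2544 CPM in endothelial libraries and 2586 CPM in hematopoietic ones. A wider leukocyte list of 10 arms, which adds miR-155 and miR-342, did not move in 1 direction. It had 1 arm called higher and 1 lower at D28, 5 with a positive log2 fold change, and a median of -0.06. miR-342-3p averaged 45.7 CPM at D0 and 50.9 CPM at D28 (log2 fold change 0.26, not called). The 3 erythroid miRNAs (miR-451a, miR-144-3p, miR-486a-5p) summed to 760.8 to 2484.5 CPM at D0 and 275.7 to 855.3 CPM at D28. The 5 cardiomyocyte miRNAs summed to 2057.9 to 4863.2 CPM at D0 and 1094.6 to 2409.5 CPM at D28, and the 2 endothelial miR-126a arms to 20888.2 to 30916.2 and 14695.9 to 22056.9 CPM. The mural list (24567.9 to 27493 and 17888.4 to 26804.2 CPM), the epithelial list (234 to 329.4 and 249 to 415.8 CPM) and the liver miRNA miR-122-5p (93.9 to 242.6 and 46.1 to 115.4 CPM) overlapped between the days. No marker of these lists was at 0 in all 8 libraries. In these bulk libraries, fewer cells of a type and less RNA per cell cannot be told apart.

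**Figure D1:**
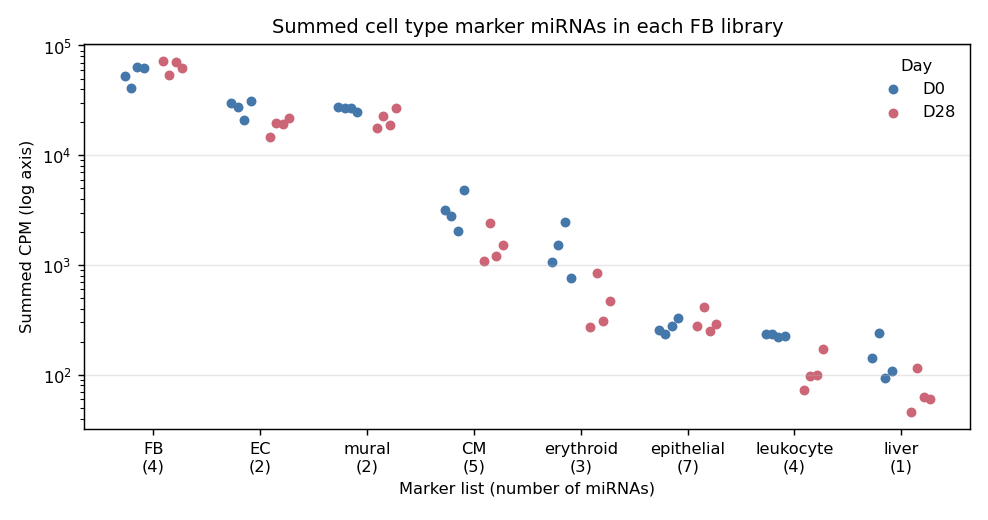
Summed CPM of 8 marker lists (log axis) in each of the 8 FB libraries, with the number of miRNAs of each list under its name. The FB list is highest in all 8 libraries, and the leukocyte list lies between 222.3 and 235.7 CPM at D0 and at or below 170.6 CPM at D28.

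At D28, 38 of 563 miRNAs differed from D0 (6.75%, edgeR quasi-likelihood test, Benjamini-Hochberg adjusted p under 0.05), of which 27 were higher (4.8%) and 11 lower (1.95%). At an unadjusted p under 0.05 the count was 108. Scaling by library size alone gave 16 higher and 16 lower in place of 27 and 11, with the median log2 fold change of all miRNAs at -0.10 instead of 0.02. All 38 kept their direction in every alternative that tested them, and 12 were called in each, while the others each missed the threshold in at least 1. miR-31-3p, miR-344d-3p, miR-344e-3p and miR-1983 were tested in 12 of the 13 alternatives. They passed the filter on counts only with the other FB days included, so the fit of D0 and D28 alone left them out. miR-31-3p and miR-344d-3p are counted among the 12 without that fit, so they were put to fewer alternatives than the rest of the 12. That fit shared 21 of the 38 calls. Besides the 12, miR-148a-3p and miR-193b-3p were called whichever single library was left out. In CPM, 26 of the 38 did not overlap between the days; over all miRNAs tested, 22 lay above every D0 library (3.91%) and 37 below (6.57%).

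Most miRNAs lay close to their level at D0. The median size of the log2 fold change was 0.26, with a median SE of 0.28, and 64 of 563 differed by at least 1 on the log2 scale. For comparison, 45 miRNAs were called at D1 (7.99%), 242 at D3 (43%), 257 at D7 (45.6%) and 139 at D14 (24.7%), all against the same D0 libraries. The 5 most abundant miRNAs at D0, let-7a-5p, let-7c-5p, miR-26a-5p, let-7f-5p and miR-99a-5p, were not called, with log2 fold changes between -0.02 and 0.16. let-7a-5p, a member of the let-7 family that restrains growth genes, stood at 86160 CPM at D0 and 87694 CPM at D28.

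**Figure D2:**
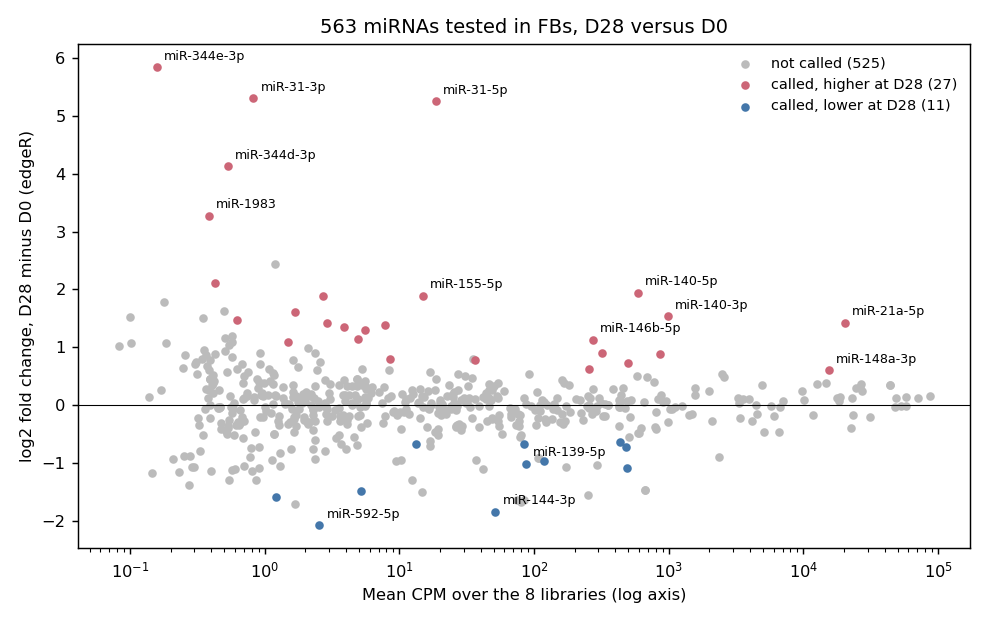
Log2 fold change at D28 against mean CPM over the 8 FB libraries (log axis), 1 point per miRNA tested. The 27 miRNAs called higher (red) reach 5.31 for miR-31-3p among those with a count at D0, whereas the 11 called lower (blue) go down to -2.08, and miR-344e-3p, which had no count at D0, has no measured fold.

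Among the miRNAs with a count at D0, the 2 arms of miR-31 had the largest fold changes. miR-31-5p, a miRNA known from keratinocyte and tumour biology, stood at 1.04, 1.80, 1.09 and 0.781 CPM in D0 replicates 1 to 4. At D28 it stood at 64.7, 19.4, 21.4 and 38.9 CPM, so that the lowest D28 library was above the highest D0 library, and D28 replicates 1 and 4 were the highest. Its log2 fold change was 5.26 (SE 0.44, adjusted p = 2.2e-09, edgeR). The 3p arm had 1, 0, 0 and 1 counts at D0 and 42, 6, 13 and 70 counts at D28, a ratio of 42.7 in pooled CPM (exact 95% interval 11.6 to 356, counting error only; adjusted p = 0.00044, edgeR). The same 2 D28 libraries were highest for both arms. The Mir31 hairpin lies at chr4:88910557-88910662 (GRCm38, minus strand) within an exon of a long noncoding RNA, and is printed with its arms in capitals.
Mir31: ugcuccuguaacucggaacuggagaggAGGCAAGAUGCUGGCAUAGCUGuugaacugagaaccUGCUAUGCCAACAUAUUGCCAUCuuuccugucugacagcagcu

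Both arms of miR-140 rose. miR-140, known for its high level in cartilage, lies at chr8:107551244-107551313 (GRCm38) within the gene Wwp2. miR-140-3p was at 490, 544, 568 and 548 CPM at D0 and at 2041, 863, 916 and 1909 CPM at D28, without overlap. The log2 fold change was 1.54 (SE 0.23, adjusted p = 0.0001, edgeR). miR-140-5p was at 251, 196, 291 and 309 CPM at D0 and at 1465, 539, 587 and 1058 CPM at D28, again without overlap. Its log2 fold change was 1.94 (SE 0.33, adjusted p = 0.00034). As for miR-31, D28 replicates 1 and 4 were highest and replicates 2 and 3 close to each other. The other hairpin of this list, miR-455, had 2 arms tested and neither was called (median of the 4 arms 0.99, lowest 0.33).

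miR-21a-5p, an abundant miRNA of activated fibroblasts known to repress Spry1, was at 9251, 7588, 14744 and 15248 CPM at D0. At D28 it was at 36598, 21788, 26899 and 29610 CPM, all above D0, a log2 fold change of 1.43 (SE 0.24, adjusted p = 0.00034, edgeR). Over the 8 libraries it had the highest mean CPM of the 38. The other arm, miR-21a-3p, was at 5.61 CPM at D0 and 5.72 CPM at D28 on average (log2 fold change 0.03, SE 0.37, adjusted p = 0.99, edgeR), and the ratio of the arms did not pass the test (1.11 on the log2 scale, SE 0.33, adjusted p = 0.16, limma). miR-21b, whose reads may in part be those of miR-21a-5p, was at 0.743 to 1.04 CPM at D0 and 2.04 to 3.13 CPM at D28 (log2 fold change 1.61, adjusted p = 0.0054, edgeR).

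2 miRNAs of the inflammatory response were higher. miR-155-5p, processed from the noncoding transcript Mir155hg in immune and other cells, was at 8.91, 3.16, 6.63 and 7.03 CPM at D0. It was at 25, 16.3, 19.3 and 32.5 CPM at D28, without overlap (log2 fold change 1.89, SE 0.29, adjusted p = 0.0001, edgeR). miR-146b-5p, which represses signalling through Irak1 and Traf6, was at 185, 181, 149 and 208 CPM at D0 and at 374, 292, 368 and 417 CPM at D28, also without overlap (log2 fold change 1.13, SE 0.18, adjusted p = 0.00024, edgeR). miR-146a-5p, with the same seed GAGAACU, was at 500 to 683 CPM at D0 and 633 to 993 CPM at D28 (log2 fold change 0.48, SE 0.19, adjusted p = 0.14, edgeR). The leukocyte marker miR-150-5p was called lower at D28, whereas both miR-142a arms and miR-223-3p did not pass the test (log2 fold changes of -0.95 and -1.30 for the 3p and 5p arms and 2.44 for miR-223-3p). miR-223-3p was at 1.35 CPM or less at D0 and at 0.0441 to 5.72 CPM at D28.

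**Figure D3:**
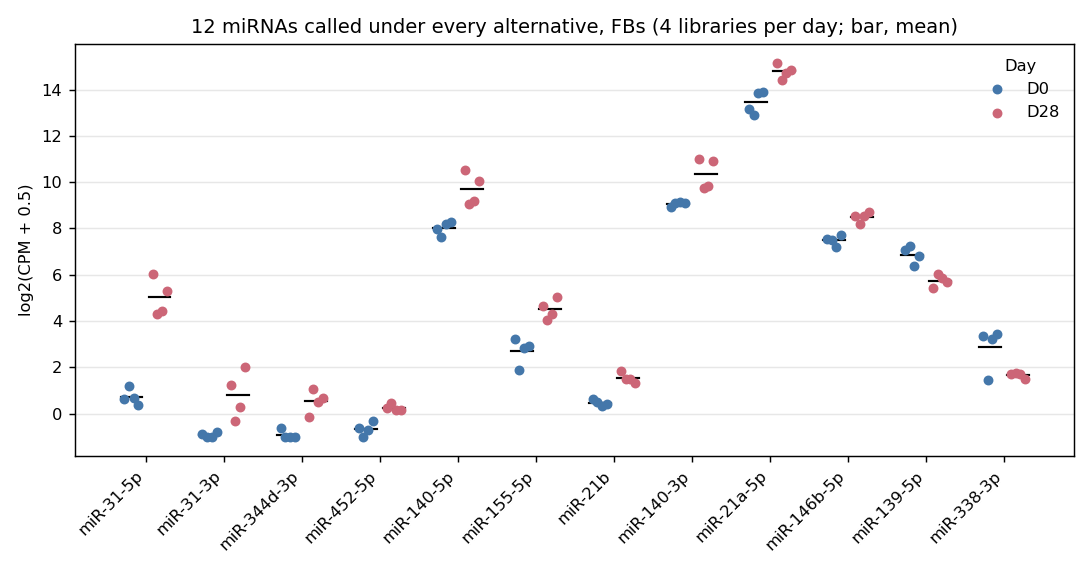
Log2(CPM + 0.5) of the 12 miRNAs called in every alternative that tested them, with D0 (blue) and D28 (red) libraries as points and group means as bars. miR-31-3p and miR-344d-3p were not tested in the fit of D0 and D28 alone. In 11 of the 12 the days do not overlap, and in miR-338-3p D0 replicate 2 lies just below the D28 libraries.

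Of the miR-34/miR-449 family, whose miR-34 members p53 induces, 3 of 6 arms were called and all were higher. miR-34c-5p was at 500, 402, 834 and 840 CPM at D0 and at 1262, 791, 1156 and 1151 CPM at D28 (log2 fold change 0.88, SE 0.24, adjusted p = 0.022, edgeR). miR-34b-5p was at 214, 152, 289 and 283 CPM at D0 and at 502, 297, 447 and 363 CPM at D28 (log2 fold change 0.91, SE 0.27, adjusted p = 0.037). D0 replicates 1 and 2 were the lowest for both, and miR-34c-5p overlapped between the days. miR-34a-5p, from another locus, rose by 0.77 on the log2 scale (SE 0.21, adjusted p = 0.024, edgeR). The family median was 0.76. Without D0 replicate 2, none of the 3 passed the threshold (adjusted p = 0.072, 0.13 and 0.081, edgeR), nor did they without D0 replicate 1 or D28 replicate 1, or with scaling by library size alone (adjusted p = 0.058, 0.09 and 0.072).

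miR-148a-3p, miR-214-5p and miR-185-5p were the other risers with a mean of at least 100 CPM. miR-148a-3p, a repressor of Dnmt1, was at 13666, 12588, 13074 and 12374 CPM at D0 and at 20652, 16915, 13541 and 20931 CPM at D28. Its log2 fold change was 0.61 (SE 0.15, adjusted p = 0.012, edgeR), and D28 replicate 3 lay within the D0 range. miR-214-5p, from the noncoding RNA Dnm3os, was at 213, 188, 231 and 218 CPM at D0 and at 338, 249, 268 and 343 CPM at D28, without overlap (log2 fold change 0.62, SE 0.16, adjusted p = 0.022, edgeR). The other 5 arms of the miR-199/miR-214 list were not called, with log2 fold changes of 0.30 to 0.39. miR-185-5p was at 342, 262, 440 and 551 CPM at D0 and at 657, 707, 459 and 592 CPM at D28, with an overlap (log2 fold change 0.74, SE 0.20, adjusted p = 0.025, edgeR). Neither miR-214-5p nor miR-185-5p was called without D0 replicate 1, D0 replicate 2 or D28 replicate 1, nor was miR-185-5p without D28 replicate 2.

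Several risers belonged to genomic clusters and were of low level. In the cluster of Mir200b, Mir200a and Mir429 on chromosome 4, whose miRNAs hold epithelial cells in their state by repressing Zeb1 and Zeb2, all 3 were called. miR-200b-3p averaged 3.35 CPM at D0 and 7.78 CPM at D28 (log2 fold change 1.30, adjusted p = 0.011, edgeR), and miR-200a-3p 3.21 and 6.59 CPM (1.14, adjusted p = 0.0499). miR-429-3p had 18 counts in all at D0 and 69 at D28 (ratio 2.5, exact 95% interval 1.47 to 4.46). miR-200c-3p, which has the seed of miR-200b-3p but lies in the cluster with miR-141, had a log2 fold change of -0.01, and miR-141-3p one of 0.98 (adjusted p = 0.16, edgeR). In all, 3 of the 7 epithelial miRNAs were called, with a median log2 fold change of 1.07. Without D0 replicate 3 none of the 3 was called, and miR-200a-3p and miR-429-3p also missed the threshold without D0 replicate 2, D0 replicate 4, D28 replicate 3 or D28 replicate 4 and with scaling by library size alone.

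In the Mir183, Mir96 and Mir182 cluster on chromosome 6, which serves sensory organs, 2 of 3 were called. miR-182-5p averaged 4.52 ± 0.55 CPM (SD, n = 4) at D0 and 11.2 ± 4.17 CPM at D28, and miR-183-5p 1.37 ± 0.60 and 4.03 ± 1.36 CPM. The log2 fold changes were 1.39 and 1.88 (adjusted p = 0.037 for both, edgeR). miR-96-5p, at 0.217 and 0.773 CPM, was not called (1.63, adjusted p = 0.12, edgeR). Neither call held when D0 replicate 1, D0 replicate 3, D0 replicate 4 or any of D28 replicates 2 to 4 was left out.

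The miR-344 hairpins on chromosome 7 gave 3 risers. miR-344d-3p, which 3 hairpins encode, had 3, 0, 0 and 0 counts at D0 and 9, 31, 17 and 22 counts at D28 (ratio 17.1, exact 95% interval 5.66 to 84.9, adjusted p = 0.00042, edgeR). miR-344e-3p had no count at D0 and 0, 12, 5 and 7 counts at D28, at least 5.21-fold higher against a floor of 3 counts over the D0 group if the D28 counts are taken as exact (adjusted p = 0.027, edgeR). With the counting error of both groups, the exact 95% lower limit of the ratio was 3.92. miR-410-3p, with the same seed AUAUAAC but from the Dlk1-Dio3 cluster, was at 31.9 CPM at D0 and 23.7 CPM at D28 (log2 fold change -0.33, adjusted p = 0.61, edgeR). miR-344-3p, with another seed, rose by 1.42 on the log2 scale (adjusted p = 0.025, edgeR).

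The remaining risers were miR-452-5p, miR-1983, miR-193b-3p, miR-10b-3p and miR-3081-3p. miR-452-5p, from an intron of Gabre, had 9 counts at D0 and 56 at D28 (ratio 4.05, exact 95% interval 1.99 to 9.32, adjusted p = 0.0045, edgeR), while its neighbour miR-224-5p was not called (log2 fold change 0.53). miR-1983 had 4 counts at D0 and 58 at D28 (ratio 9.44, exact 95% interval 3.5 to 35.8, adjusted p = 0.022, edgeR). miR-193b-3p rose by 1.35 on the log2 scale, and miR-193a-3p, with the same seed ACUGGCC, had a value of -1.06 (adjusted p = 0.20, edgeR). miR-10b-3p, from the Hoxd cluster, rose by 1.10 and miR-3081-3p by 0.81 on the log2 scale (adjusted p = 0.037 and 0.013, edgeR). Of the 13 alternatives, miR-10b-3p was called in 3 and miR-3081-3p in 11. miR-10b-3p was lost, among others, with scaling by library size alone, with a replicate block and with the compared days alone.

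Among the fallers, 2 belonged to the miR-378 family, which is linked to mitochondrial metabolism. miR-378d was at 657, 630, 591 and 573 CPM at D0 and at 250, 379, 286 and 457 CPM at D28 (log2 fold change -0.72, SE 0.19, adjusted p = 0.022, edgeR). miR-378c was at 542, 529, 551 and 550 CPM at D0 and at 234, 360, 254 and 440 CPM at D28 (log2 fold change -0.64, SE 0.18, adjusted p = 0.031, edgeR). In both, all D28 libraries were below all D0 libraries, and D28 replicates 1 and 3 were lowest. Neither was called without D0 replicate 1, D28 replicate 1 or D28 replicate 3, and miR-378c was not called without any one of the other D0 libraries either. The 5 members had log2 fold changes between -0.72 and -0.56, among them miR-378a-3p at 622 and 391 CPM (-0.56, adjusted p = 0.063, edgeR). The mean level of miR-378c in cardiomyocytes at D0 was 6403 CPM, and in FBs the 4 cardiomyocyte markers tested had log2 fold changes between -1.71 and -0.90, none of which passed the test. Of these, miR-1a-3p was at 2033 to 4817 CPM at D0 and 1087 to 2395 CPM at D28, and the part of cardiomyocytes in the result was not tested.

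miR-139-5p, from an intron of Pde2a, was at 135, 151, 82.3 and 111 CPM at D0 and at 42.5, 65.9, 56.9 and 51.2 CPM at D28, without overlap. Its log2 fold change was -1.01 (SE 0.21, adjusted p = 0.0026, edgeR), and it was called in every alternative. Both arms of miR-338, from an intron of Aatk, were lower. miR-338-3p was at 9.64, 2.25, 8.75 and 10.3 CPM at D0 and at 2.78, 2.88, 2.83 and 2.30 CPM at D28, with D0 replicate 2 just below the D28 values (log2 fold change -1.48, SE 0.34, adjusted p = 0.0082, edgeR). miR-338-5p was at 12.7 to 18.7 CPM at D0 and 9.09 to 10.1 CPM at D28 (log2 fold change -0.68, adjusted p = 0.024, edgeR), and was called in 6 of 13 alternatives.

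miR-151-5p was at 966, 258, 820 and 732 CPM at D0 and at 293, 385, 294 and 201 CPM at D28. D0 replicate 2 was below 3 of the D28 libraries, and the log2 fold change was -1.10 (SE 0.33, adjusted p = 0.037, edgeR). miR-150-5p, a miRNA of mature lymphocytes, was at 176, 198, 102 and 171 CPM at D0 and at 56.4, 62.4, 75.9 and 111 CPM at D28 (log2 fold change -0.97, SE 0.25, adjusted p = 0.017, edgeR), with an overlap. It is itself the largest member of the leukocyte list above. miR-144-3p, a miRNA of red cell precursors, was at 83.0, 32.0, 135 and 78.5 CPM at D0 and at 18.5, 27.1, 23.8 and 15.2 CPM at D28, without overlap (log2 fold change -1.84, SE 0.49, adjusted p = 0.022, edgeR). It was the only one of 7 erythroid arms called by edgeR (7 at an unadjusted p under 0.05), and DESeq2 also called miR-144-5p (adjusted p = 0.0498). The 7 had log2 fold changes between -1.84 and -1.46, and include miR-486a-5p and miR-486b-5p, which have the same counts. miR-151-5p, miR-150-5p and miR-144-3p each missed the threshold without D28 replicate 1 or D28 replicate 3, and without 1 or more of the D0 libraries. The part of leukocytes or red cells in these falls was not tested.

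The other fallers were miR-592-5p (log2 fold change -2.08, adjusted p = 0.011, edgeR), miR-6240 (-1.60, adjusted p = 0.017) and miR-92a-3p (-0.68, adjusted p = 0.037). miR-592-5p, from Grm8, was at 3.16 to 4.95 CPM at D0 and 0.204 to 1.93 CPM at D28. miR-92a-3p, of the growth-promoting miR-17-92 cluster, was at 115, 121, 102 and 89.3 CPM at D0 and at 52.7, 64.4, 69.1 and 59.2 CPM at D28. It was the only one of 11 arms of that list called (4 at an unadjusted p under 0.05), and was not called without D0 replicate 1, 2 or 3 or D28 replicate 1, 3 or 4. The 11 had log2 fold changes between -0.76 and -0.01, among them miR-92a-1-5p at -0.76 (adjusted p = 0.092, edgeR), miR-18a-5p at -0.69, miR-17-3p at -0.67, and miR-17-5p and miR-19b-3p at -0.01.

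Some larger groups had no member called. The miR-29 family, which represses collagen and other matrix messenger RNAs, had 7 arms tested and 0 called by edgeR or DESeq2 (1 at an unadjusted p under 0.05), with a median log2 fold change of -0.20. miR-29b-3p was at 238, 34.3, 397 and 286 CPM at D0 and at 94.7, 133, 129 and 62.4 CPM at D28, which overlapped only through D0 replicate 2. Its log2 fold change was -1.06 (SE 0.48, adjusted p = 0.22, edgeR), and without D0 replicate 2 it was -1.43 (adjusted p = 0.039). miR-29a-3p and miR-29c-3p had values of -0.47 and -0.46 (adjusted p = 0.40 and 0.44, edgeR).

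The imprinted Dlk1-Dio3 cluster had 73 arms tested and 0 called by edgeR, with a median of 0.03 (3 at an unadjusted p under 0.05 and 1 called by DESeq2, miR-380-5p). The Sfmbt2 families had 34 arms and 0 called by either tool (1 unadjusted), with a median of 0.14. The let-7 family had 21 arms and 0 called by either tool (2 unadjusted), with a median of 0.07. miR-221/miR-222, known for driving cell division, had 4 arms with log2 fold changes of 0.38 to 0.87 and 0 called by edgeR (3 unadjusted), and DESeq2 called miR-221-3p (adjusted p = 0.026). The endothelial miR-126 list had 4 arms with values of -0.51 to -0.40 and 0 called by either tool (0 unadjusted). In all, 25 of the 41 lists examined had no member called by edgeR. 3 further miRNAs with at least 100 CPM differed by more than 1 on the log2 scale without passing the test: miR-451a (-1.56, adjusted p = 0.092), miR-486a-5p, which has the same counts as miR-486b-5p (-1.46, adjusted p = 0.092), and miR-1b-5p (-1.04, adjusted p = 0.14, edgeR).

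**Figure D4:**
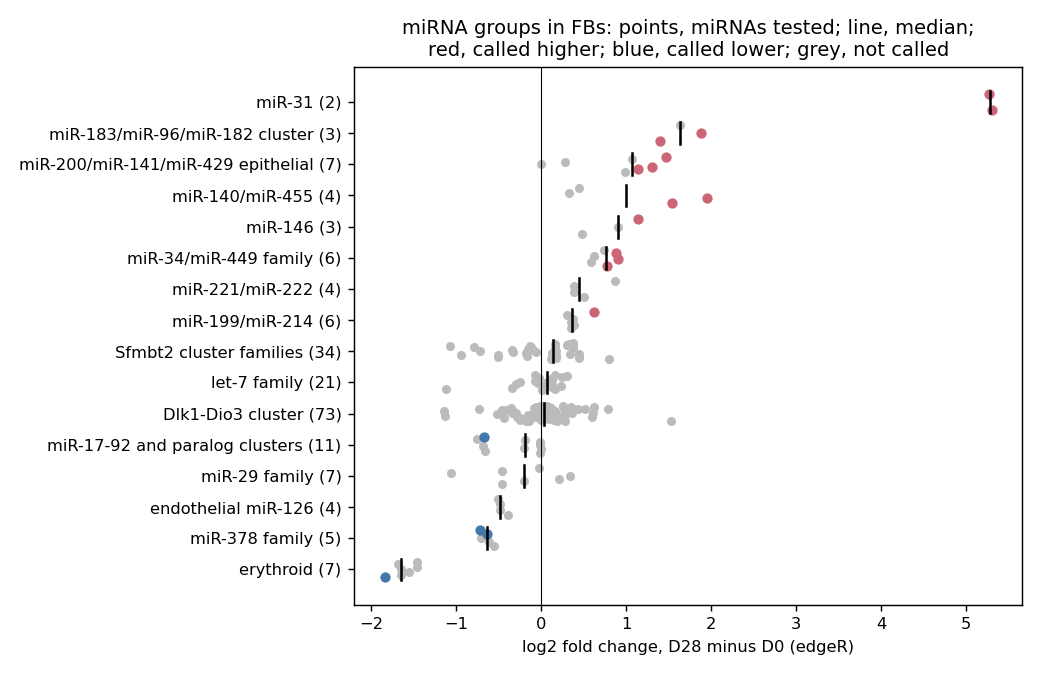
Log2 fold changes at D28 of the miRNAs tested in 16 groups (points; number tested in brackets), with the group median as a line, called higher in red and called lower in blue. The medians run from 5.28 for miR-31 to -1.65 for the erythroid group, and the Dlk1-Dio3 group is centred at 0.03.

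By sequence, the 24 risers with an entry had a median GC content of 42.2% and the 9 fallers 52.4%, beside 47.8% over the 474 miRNAs tested that have one. By level, 15 of 27 risers were below 10 CPM on average, beside 287 of 563 of all, and 9 were at or above 100 CPM, beside 149 of 563. Of the fallers, 3 of 11 were below 10 CPM and 4 at or above 100 CPM.

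The level at D28 was also compared with D7, when 227 of 563 miRNAs differed from D28 (40.3%; 105 higher and 122 lower at D28, edgeR). This comparison shares the D28 libraries with the one against D0. Of the 27 risers, 10 were lower at D28 than at D7, 4 were higher and 13 were not called. miR-183-5p, miR-182-5p and miR-1983 were the risers farthest below D7, by -3.79, -3.37 and -3.55 on the log2 scale. miR-183-5p averaged 1.37 CPM at D0 and climbed to 20.6 CPM at D3 and 70.6 CPM at D7, before it fell to 29.0 CPM at D14 and 4.03 CPM at D28.

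Both arms of miR-140, miR-31-5p and miR-185-5p were the 4 that were higher at D28 than at D7. In CPM the days overlapped for miR-31-5p, at 19.4 to 64.7 at D28 and 17.2 to 30.5 at D7. They also overlapped for miR-140-3p (863 to 2041 and 804 to 1342) and miR-140-5p (539 to 1465 and 407 to 765). miR-185-5p did not overlap (459 to 707 and 308.5 to 437). The fit also used TMM factors, 0.78 to 0.92 at D28 and 1.05 to 1.165 at D7, which CPM leave out. Its log2 differences are therefore larger than those of the CPM means. From D0 to D28, the means of miR-31-5p on the 6 days were 1.18, 2.61, 22.2, 25.5, 28.4 and 36.1 CPM, and the last was 0.87 above D7 on the log2 scale (adjusted p = 0.037, edgeR). Those of miR-140-3p were 538, 520, 487, 1043, 1626 and 1432 CPM (0.81 above D7, adjusted p = 0.0069, edgeR). miR-185-5p was at 369 CPM at D7 and 360 CPM at D14, below its D28 mean of 604 ± 107 CPM (SD, n = 4; 1.08 above D7, adjusted p = 0.00018, edgeR).

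Other risers had their highest mean before D28. The means of miR-21a-5p on the 6 days were 11708, 20438, 53892, 37220, 40412 and 28724 CPM, and its D28 level differed from D7 by -0.01 (adjusted p = 0.97, edgeR). miR-155-5p had its highest mean at D3, 62.7 CPM, and was 0.75 lower at D28 than at D7 on the log2 scale (adjusted p = 0.027, edgeR). miR-148a-3p and miR-146b-5p had their highest means at D7, 41714 and 696 CPM, and were lower at D28 by -0.86 and -0.59 (adjusted p = 7.2e-05 and 0.011, edgeR). Of the 11 fallers, 10 were not called between D28 and D7, and miR-338-5p was higher at D28 (0.55, adjusted p = 0.022, edgeR).

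**Figure D5:**
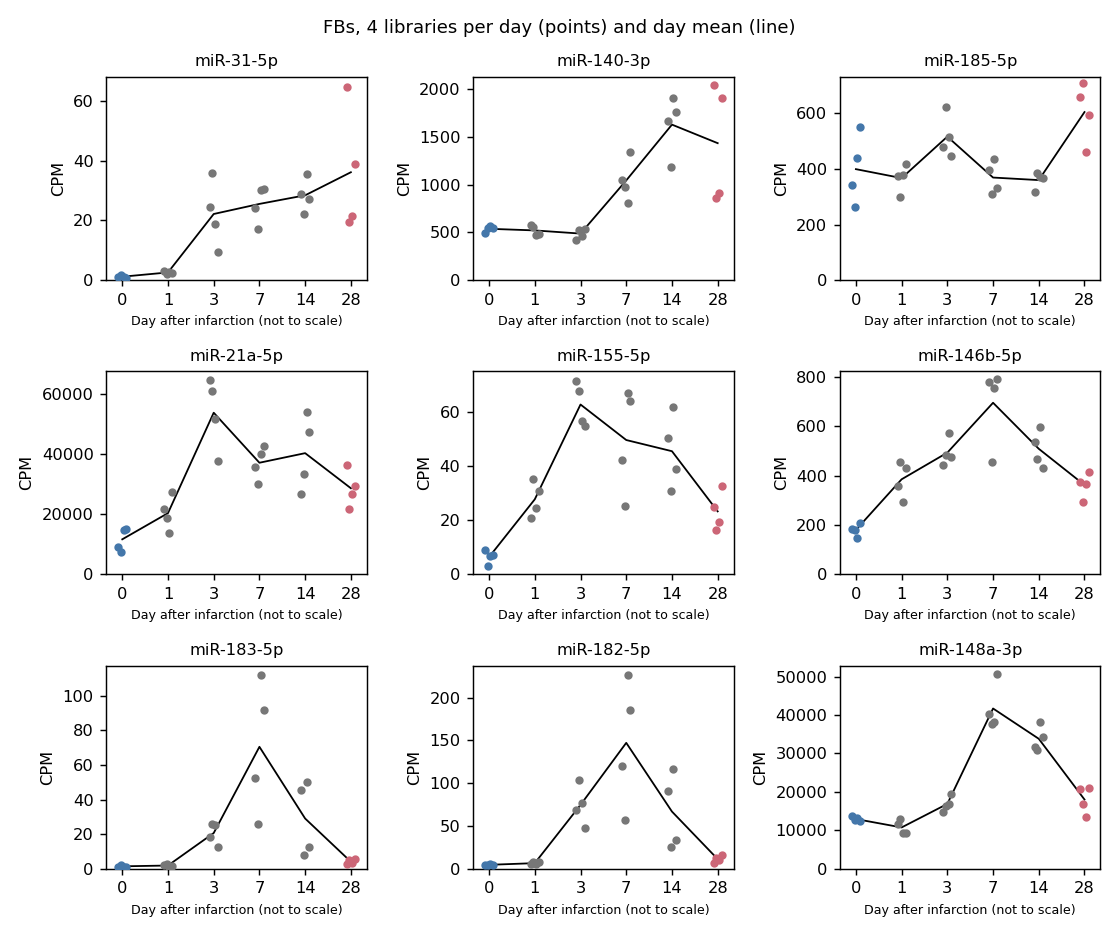
CPM of 9 risers in each FB library on 6 days (points) with the day mean (line), D0 in blue and D28 in red. miR-31-5p and miR-185-5p have their highest mean at D28, whereas miR-183-5p falls from a mean of 70.6 CPM at D7 to 4.03 CPM at D28.

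Arm ratios were compared because they do not depend on how libraries are scaled. Of 147 hairpins whose arms each averaged 10 counts or more, 1 changed its ratio of 5p to 3p counts (0.68%, limma with Benjamini-Hochberg adjustment; 17 at an unadjusted p under 0.05). This was miR-380 of the Dlk1-Dio3 cluster, at chr12:109711803-109711863 (GRCm38, plus strand), printed with its arms in capitals.
Mir380: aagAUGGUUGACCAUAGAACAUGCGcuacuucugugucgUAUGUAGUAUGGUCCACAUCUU
It had 129, 10, 152 and 97 counts on the 5p arm and 75, 11, 80 and 53 on the 3p arm at D0. At D28 it had 209, 235, 153 and 192 on the 5p arm and 68, 50, 45 and 55 on the 3p arm. The log2 ratio was 0.61 ± 0.50 at D0 and 1.85 ± 0.26 at D28 (SD, n = 4), with the libraries of the days apart, a difference of 1.24 (SE 0.22, adjusted p = 0.002, limma). For miR-140, whose arms both rose, the log2 ratio differed by 0.40 between the days (SE 0.29, adjusted p = 0.61, limma).

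The change in FBs was set against the mean change in cardiomyocytes (CMs), endothelial cells (ECs) and CD45-positive hematopoietic cells (HCs) over the same days in all 96 libraries. The paper states that the pools of the cell types at a time point were matched by animal. The fit took all libraries as independent, so its SEs and adjusted p leave this matching out. Of 712 miRNAs, 72 differed (10.1%, edgeR with Benjamini-Hochberg adjustment), 33 with a higher and 39 with a lower change in FBs. With scaling by library size alone there were 209, of which 11 were higher and 198 lower, and without HC D0 replicate 3 there were 80, of which 51 were higher and 29 lower. The split therefore depends on the scaling and on that library, while the 6 miRNAs named next were called in both of these alternatives. miR-148a-3p rose by 0.63 in FBs and changed by -3.65 in CMs, 0.09 in ECs and 0.03 in HCs, a difference of 1.81 (SE 0.48, adjusted p = 0.0072, edgeR). miR-140-3p changed by 1.57 in FBs, -0.73 in CMs, 0.39 in ECs and 0.24 in HCs, a difference of 1.60 (SE 0.28, adjusted p = 3e-05, edgeR).

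miR-31-5p and miR-155-5p, added after their values were seen, also differed. miR-31-5p changed by 5.27 in FBs against 1.42, -0.32 and 1.63 in CMs, ECs and HCs (difference 4.36, SE 0.48, adjusted p = 2.2e-11, edgeR). miR-155-5p changed by 1.92 in FBs against -0.17, -0.98 and -0.58 (difference 2.50, SE 0.33, adjusted p = 1.9e-08, edgeR). In the other direction, miR-34b-5p changed by 0.94 in FBs and by 2.15, 2.42 and 2.55 in CMs, ECs and HCs (difference -1.43, SE 0.37, adjusted p = 0.0069, edgeR). miR-214-3p, which was not called in FBs, changed by 0.32 there and by 2.68, 1.11 and 1.76 in the others (difference -1.53, SE 0.36, adjusted p = 0.0027, edgeR). Its level in the others was far lower. Over all days, this FB marker averaged 519.5 CPM in FBs and 8.31, 78.6 and 46.9 CPM in CMs, ECs and HCs. For miR-21a-5p the difference was -0.01 (SE 0.39, adjusted p = 1, edgeR), with changes of 1.46 in FBs, 2.63 in CMs, 0.55 in ECs and 1.24 in HCs.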

How the data were processed

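Small RNA libraries were prepared with a NEBNext ligation kit and cut from a gel for inserts of miRNA size. Adaptor trimming, removal of short reads and alignment to the mature miRBase sequences were done by the authors in nf-core smrnaseq. The submitters' processing notes name Trim Galore, Bowtie2 and SAMtools. The values deposited are raw counts per mature miRNA. The line of reads without a match, 25.6% to 31.3% of the total in the 8 libraries, was left out, and hairpin tables were not used. Sets of miRNAs with identical sequence carry identical counts, and how reads with several matches were shared is not given in the sources used here.

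CPM are counts scaled to the mature total of a library. All 24 FB libraries were fitted with edgeR 4.0.16 in R 4.3.3 (filterByExpr, TMM factors, quasi-likelihood test, day as factor, Benjamini-Hochberg adjustment, threshold 0.05), and differences to the other cell types in all 96 libraries. SE is the log2 fold change divided by the root of F. For arm ratios, limma 3.58.1 was applied to log2 ratios of counts with a pseudocount of 0.5. Tables and figures were made with Python 3.11.15, pandas 2.3.3, numpy 2.4.6 and matplotlib 3.10.9. The fits were tested on simulated data. Alternatives were DESeq2 1.42.0, scaling by library size, a replicate block, all miRNAs without a filter, a fit of the compared days alone, and each library left out in turn. As outliers, the study removed 1 small RNA library each of FBs at D0, ECs at D28 and HCs at D0. Its text does not name them, and all were kept here. The differences to the other cell types were also fitted without HC D0 replicate 3 and without FB D0 replicate 2, but no EC D28 library was left out. Exact permutation tests of 4 against 4 libraries cannot give a p below 0.0286 and are not reported. Intervals of pooled counts are exact binomial intervals at 95% and cover counting error only.

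All miRNAs called were named, with values in every library for those of at least 100 CPM. Members of 41 lists were counted, and miRNAs not called were named at 100 CPM and a log2 fold change of at least 1, or as the 5 highest at D0. The members and lists were chosen with earlier results of these data known, and values in every library of other miRNAs were added after they were seen.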

Additional observations from a re-analysis of the deposited data

Results flagged for a closer look

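Among 76 groups of 4 libraries, 4 held a library whose gap to the nearest other, as a share of the group's range on the log2 scale, exceeded Dixon's 95% critical value, where chance gives about 1 in 20. These were miR-338-5p at D0 (0.905, D0 replicate 3 lowest at 12.7 CPM), miR-338-3p at D0 (0.886, D0 replicate 2 lowest at 2.25 CPM), miR-338-3p at D28 (0.847, D28 replicate 4 lowest at 2.30 CPM) and miR-344d-3p at D0 (1, the only library with counts, 3 in D0 replicate 1). For miR-344d-3p the other D0 libraries were tied without counts. Its share is then 1 by construction and cannot be set against the chance rate.

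The change from D0 to D28 in FBs was tested against the mean change in CMs, ECs and HCs (edgeR), with all libraries taken as independent. Of 712 miRNAs, 72 differed (10.1%, adjusted p under 0.05). Only the 6 of them named in the Results are listed here. Among these, miR-31-5p and miR-155-5p were added after their values were seen. For the 6, the differences on the log2 scale were 4.36 for miR-31-5p, 2.5 for miR-155-5p, 1.81 for miR-148a-3p, 1.6 for miR-140-3p, -1.53 for miR-214-3p and -1.43 for miR-34b-5p. That of miR-148a-3p comes mostly from its fall in CMs, given in the Results.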

How the results depend on the processing

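All 38 miRNAs kept their direction in every alternative that tested them, and 12 were called in each of them: both arms of miR-31 and miR-140, miR-21a-5p, miR-21b, miR-155-5p, miR-146b-5p, miR-344d-3p, miR-452-5p, miR-139-5p and miR-338-3p. DESeq2 called 48 miRNAs and all 38 among them. Scaling by library size alone gave 32 calls, 16 higher. Without a filter on low counts there were 56 calls, 26 lower, of 1336 tested. A fit of the compared days alone gave 23 calls, 12 higher, of 497 tested, and 21 of the calls were shared. miR-31-3p, miR-344d-3p, miR-344e-3p and miR-1983 were not among the 497. With the replicate number as a block there were 36 calls, 34 of them shared; same-numbered D0 and D28 libraries correlated at -0.04 to 0.11, so the numbers do not pair them. Leaving out 1 library gave 22 to 44 calls, 17 to 25 higher and 2 to 19 lower. The count moved by over 1.5 times without D0 replicate 1 (22), D28 replicate 1 (23) or D28 replicate 3 (24), and was 28 without D0 replicate 2. Of the most abundant miRNAs, let-7c-5p and let-7f-5p went to -0.008 and 0 with scaling by library size, miR-26a-5p and miR-99a-5p to 0.041 and 0.038 without the filter, and these last 2 ranged from -0.067 to 0.043 and from -0.104 to 0.11 with a library left out. Arm ratios called were 3 with a pseudocount of 5, and 1 to 2 with a library left out, miR-380 among them. The count of differences to the other cell types moved from 72 to 209 with library size, and its split from 33 higher and 39 lower to 51 and 29 without HC D0 replicate 3. D0 replicate 2 limits what can be seen at low levels. The cause of these shifts was not tested.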
